A study of Homo sapiens with 8 samples.

Results

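Knockout of ETV1, ETV4 and ETV5 was compared with control in monolayers of MDA-MB-231. This established line grew out of a metastatic breast tumour and is classed as negative for oestrogen, progesterone and HER2 receptors. The comparison holds 4 of the 8 libraries of the study: the 2 libraries whose names carry the monolayer culture and the guides against ETV1, ETV4 and ETV5, against the 2 that carry the monolayer culture and a control guide. All genes were compared. The other 4 libraries are the same kinds of cell grown in collagen I gels. All 8 libraries were fitted in 1 model, so the gels enter the low-count filter and the estimate of spread behind each monolayer p value. The gels also show where the monolayer effect differed. Per the labels, the knockout monolayers received the nuclease Cas9 with guide RNAs against all 3 genes by nucleofection, an electrical transfer into the cells. For control monolayers only a guide RNA is named, without Cas9, while for control gels both are named. If the control monolayers received no Cas9, an effect of Cas9 and an effect of the knockout cannot be told apart in monolayers. All cells grew in DMEM/F12 with serum, on plastic for the monolayers. The labels do not say whether the knockout cells were a pool or a clone, how long they grew, or whether libraries of 1 group are independent cultures. Every p value thus reflects variation among these libraries alone, which may be technical.

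ETV1, ETV4 and ETV5 form the PEA3 group of the ETS family, transcription factors that bind DNA at sites with a GGAA core. Receptor tyrosine kinases raise their activity through the ERK cascade, the repressor CIC holds their transcription down, and the ubiquitin ligase adaptor COP1 marks their proteins for degradation. In breast cancer cells they are known for genes of invasion, such as matrix metalloproteinases, and for overlapping roles that can hide the loss of a single member.

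The 2 control monolayer libraries held 23896899 and 15824504 counts, and the 2 knockout libraries 16204101 and 17957151. Levels are given as CPM, counts scaled to a common library total with TMM factors that correct for composition, and values are listed for library 1 and then library 2. The 10 markers of the line all passed the filter on low counts, at a summed level of 10370 and 11310 CPM in controls and 9831 and 9776 CPM in knockouts. VIM made up most of this sum, and SPARC reached no more than 15 counts in any library. Of the 10 markers, 2 were called higher and 5 lower in the knockouts. The oestrogen and progesterone receptor genes ESR1 and PGR reached at most 2 counts in any monolayer library, and the E-cadherin gene CDH1 at most 7. The HER2 gene ERBB2 was expressed, with up to 1660 counts in a monolayer library, and did not pass. Of the markers of other cell types, 4 of 14 leukocyte genes, 5 of 10 endothelial genes and 4 of 14 fibroblast genes passed the filter on low counts. Their summed levels overlapped between groups for the leukocyte genes (9.58 and 9.43 CPM in controls, 9.42 and 9.98 CPM in knockouts). The endothelial list stood at 214 and 226 CPM in controls and 208 and 204 CPM in knockouts. The fibroblast list stood at 21.5 and 21.3 CPM in controls and 28.3 and 26.3 CPM in knockouts. The genes CDH5, VWF, DCN, LUM and CD3E, picked from these lists, reached no more than 7 counts in any monolayer library. Other members were expressed: COL1A1 of the fibroblast list reached 335 counts and was called higher. Of the leukocyte genes 1 was called higher and 1 lower, and of the endothelial genes 1 lower. Over all genes tested, 9.6% were called in each direction. Mitochondrially encoded genes took 3.71 and 3.89% of the counts in controls and 4.47 and 4.37% in knockouts. Their part in the results was not tested.

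Transcripts of ETV1 and ETV4 fell in the knockout monolayers, and those of ETV5 did not change detectably. ETV1 stood at 200.2 and 205 CPM in the control libraries and at 136 and 151 CPM in the knockout libraries. ETV4 stood at 81.3 and 89.2 CPM in controls and at 63.5 and 61.2 CPM in knockouts. The knockout libraries lay below both controls for these genes, by a log2 change of -0.50 ± 0.05 (SE) for ETV1 and -0.45 ± 0.06 for ETV4 (edgeR adjusted p = 3.75e-09 and 9.94e-07). For ETV5, values of 112 and 118 CPM in controls and 117 and 117 CPM in knockouts overlapped (log2 0.03 ± 0.05, adjusted p = 0.718). These counts do not show the edits or the proteins, and in bulk RNA a loss in some of the cells and a smaller loss in each cell cannot be told apart. Of the regulators of this group, the ERK cascade and the turnover of PEA3 proteins, 33 of 35 genes were tested, 4 rose and 6 fell, with a median log2 change of -0.02. That is 30.3% called, against 19.2% over all genes tested (9.6% in each direction). The share called rose with expression level, as given below, and this list was not matched for level. CIC and COP1 did not pass. The 6 that fell included the receptor genes EGFR (314 and 294 CPM to 256 and 257 CPM, log2 -0.25), AXL (log2 -0.21) and MET (log2 -0.23), and FGFR1 rose (log2 0.20). EGFR kept its call in every fit without 1 monolayer library, and with offsets for transcript length and GC content its log2 change was -0.13. Some of the other calls rested on single libraries. Without control library 1 or without knockout library 1, none of the 4 rises passed and, without control library 1 or knockout library 2, 3 genes fell. This touches FGFR1 (adjusted p = 0.135 without control library 1 and 0.0508 without knockout library 1). MET did not pass without knockout library 1 (adjusted p = 0.0894), and AXL did not pass without control library 2 or knockout library 2 (adjusted p = 0.0987 and 0.0719).

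Across 15568 genes tested with edgeR's quasi-likelihood F-test, 2989 (19.2%) had a Benjamini-Hochberg adjusted p under 0.05, the threshold for a call used throughout. Of all tested genes, 9.6% were higher in the knockout monolayers (1494) and 9.6% were lower (1495). Each list count below is to be read beside these shares, which rose with expression level. In the 3892 genes of highest mean CPM, 15.4% were called higher and 15.3% lower. In the 3892 of lowest mean CPM, these shares were 3.13% and 3.01%. The lists were not matched for level, so a list share set against 19.2% does not compare genes of like level. Whether any list exceeds genes of its own level was not tested. Most changes were small: the median size of a called change was 0.316 on the log2 scale, 1536 called genes changed by less than 0.32 and 235 by more than 1. A test against a fold of 1.5 called 126 genes (0.809%), 65 higher and 61 lower. The groups overlapped for 2 of the called genes. The number of calls leaned on single libraries: it was 1872 without control library 1 and 1848 without knockout library 1. The number of rises was 767 and 815 in these fits and 970 without knockout library 2, and the number above 1.5-fold was 77 without control library 2 and 63 without knockout library 2. Small list medians did too: those of the ERK cascade, ERK output, metastasis, fatty acid, cytoskeletal, matrix, replication, mitotic, Wnt and Notch lists, all under 0.1 in size, moved by over 1.5 times or changed sign without at least 1 library.

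**Figure D1:**
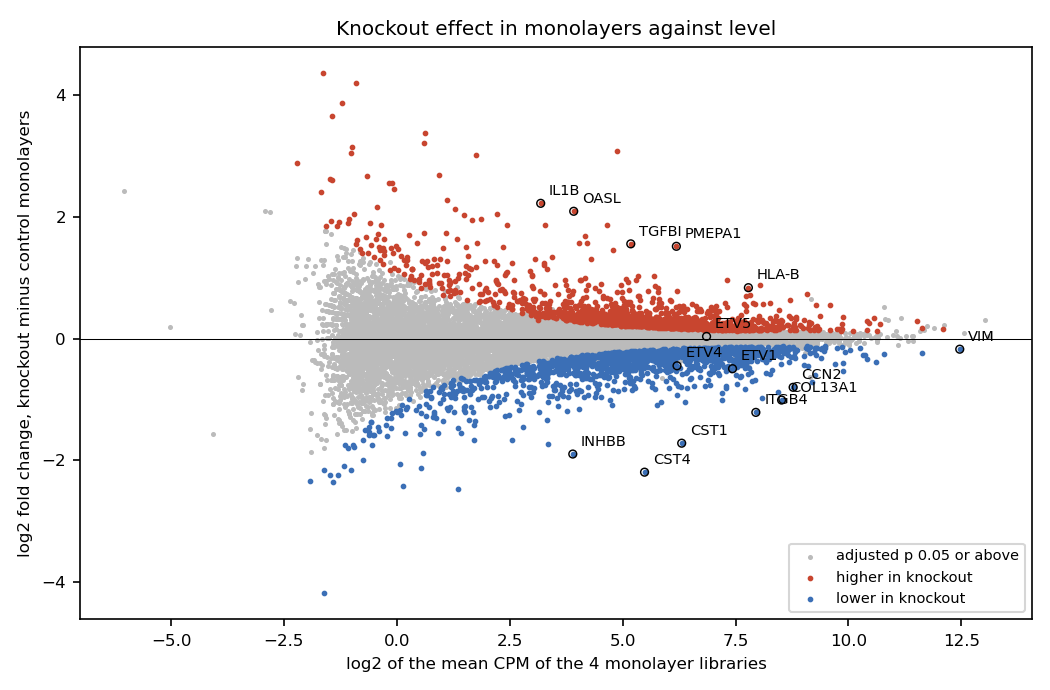
Each point is a gene, placed by the log2 of its mean CPM over the 4 monolayer libraries (x axis) and by its log2 fold change, knockout minus control monolayers (y axis), with called genes in red (higher) and blue (lower) and circles around labelled genes. CST4 is the lowest labelled point at -2.19, IL1B the highest at 2.22, and ETV5 sits near 0.

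The largest rises, among genes with a mean of at least 5 CPM, were in IL1B, OASL, AKR1C1, CEMIP and RNF128. IL1B, which encodes the cytokine interleukin-1 beta, went from 3.02 and 3.48 CPM in controls to 13.6 and 16.3 CPM in knockouts, a 4.66-fold rise (log2 2.22 ± 0.17 SE, adjusted p = 1.75e-12). OASL, an interferon-induced gene of the oligoadenylate synthetase family, went from 5.11 and 6.58 CPM to 23.2 and 25.5 CPM (log2 2.09 ± 0.13). AKR1C1, a reductase of steroid hormones, went from 11.5 and 9.87 CPM to 33.6 and 45.2 CPM (log2 1.87 ± 0.12). Leading genes were chosen for size and for groups that do not overlap, so the gap between the groups in these genes is set by the choice. CEMIP, whose product binds hyaluronan and takes part in its breakdown, rose from 4.11 and 4.28 CPM to 14.6 and 15.9 CPM (log2 1.86 ± 0.14). RNF128, a ubiquitin ligase, rose from 2.33 and 2.30 CPM to 8.94 and 7.96 CPM (log2 1.86 ± 0.18). CYP1B1, a cytochrome P450 that the aryl hydrocarbon receptor induces, rose from 7.57 and 9.31 CPM to 23.8 and 25.2 CPM (log2 1.56 ± 0.11). The other 9 of the 15 leading rises, by the rule of size, were CXCL8, PTGS2, TGFBI, PMEPA1, AKR1C2, PRSS2, SYT12, EPHB6 and AQP3, with log2 changes of 1.31 to 1.69. Among them PRSS2, a trypsinogen, went from 13.6 and 15.8 CPM to 38.1 and 42.1 CPM. AQP3, a channel for water and glycerol, went from 12 and 10.5 CPM to 25.9 and 30.2 CPM. PRSS2, AKR1C1 and AKR1C2 have near-identical relatives, so how their reads were divided is uncertain.

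The largest falls were in CST4, INHBB, TFF2, CST1 and CD22. CST4, which encodes the salivary cystatin S, went from 72.0 and 75.3 CPM in controls to 14.4 and 17.6 CPM in knockouts, a 4.58-fold fall (log2 -2.19 ± 0.08 SE, adjusted p = 3.04e-20). CST1, the neighbouring cystatin SN gene, went from 127 and 116 CPM to 36.6 and 37.4 CPM (log2 -1.72 ± 0.07). INHBB, the beta B subunit of activin and inhibin, went from 21.9 and 25.1 CPM to 7.25 and 5.35 CPM (log2 -1.90 ± 0.13). That the knockout libraries lay far from the control libraries in these 3 genes was likewise set by the choice. TFF2, a secreted trefoil peptide, went from 15 and 16.5 CPM to 4.17 and 5.24 CPM (log2 -1.73 ± 0.13). ITGB4, the laminin-binding integrin beta 4, went from 329 and 362 CPM to 152 and 146 CPM (log2 -1.21 ± 0.05, adjusted p = 1.46e-18). ITGB3, the integrin beta 3 chain, went from 12.3 and 12.4 CPM to 4.83 and 5.84 CPM (log2 -1.20 ± 0.14). The guidance ligand genes SEMA3E and SEMA3D fell by 1.26 and 1.25 on the log2 scale. The other 7 leading falls were CD22, SLCO4C1, RGCC, CRADD, CLMN, FAM24B and MATN2, with log2 changes of -1.67 to -1.11. RGCC, a regulator of the cell cycle, went from 14.2 and 14.5 CPM to 5.86 and 5.51 CPM, and CRADD, an adaptor of caspase-2, from 17.7 and 20.2 CPM to 8.34 and 8.13 CPM. All 30 leading genes kept their call in the alternatives tried. On hg38, with GENCODE v29 gene models, CST4 lies at chr20:23685640-23689040 and CST1 at chr20:23747553-23751268, both on the minus strand.

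**Figure D2:**
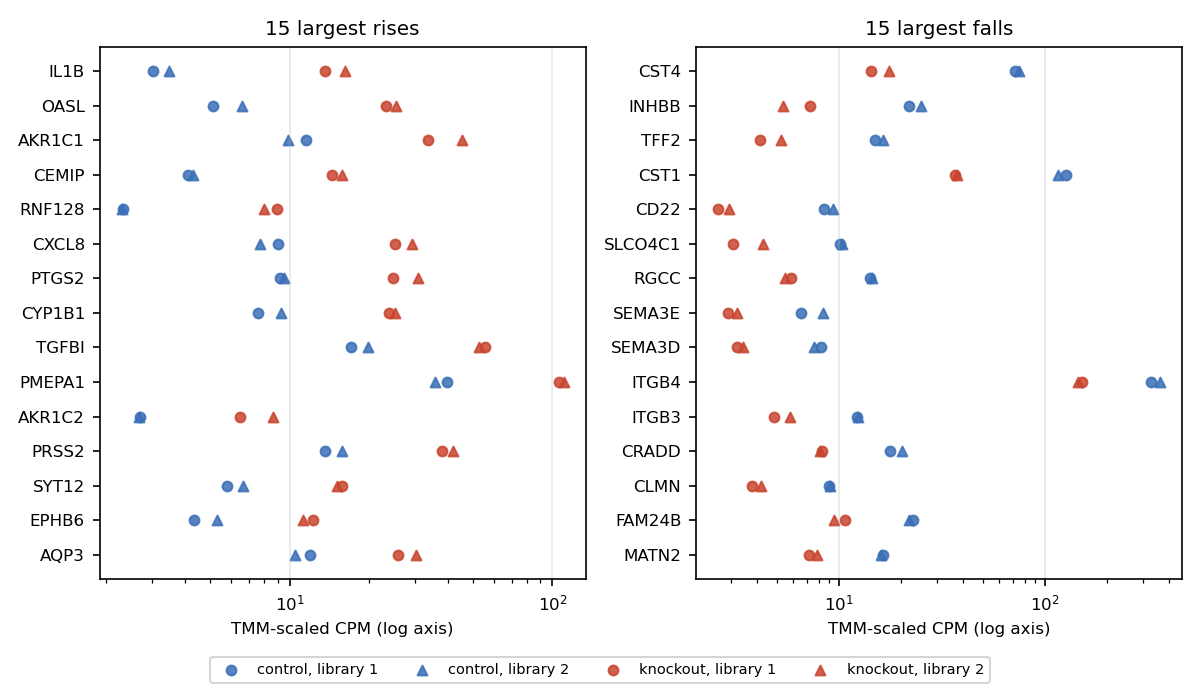
The 15 largest rises (left) and falls (right) are plotted as CPM on a log axis, blue for control and red for knockout monolayers, circles for library 1 and triangles for library 2. Genes were chosen for groups that do not overlap, so that separation is set by the choice, and what the plot adds is the levels and the spread, as in IL1B (13.6 and 16.3 CPM against 3.02 and 3.48 CPM) and CST4 (14.4 and 17.6 CPM against 72.0 and 75.3 CPM).

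The largest change among genes with at least 5 CPM was in a gene outside this rule, the noncoding ENSG00000250657, chosen after its values were seen. This transcript, on chr4:43340875-43345600 (hg38, plus strand), went from 6.96 and 5.15 CPM in controls to 52.3 and 53.1 CPM in knockouts (log2 3.08 ± 0.21 SE, adjusted p = 6.26e-05). It was also higher in the knockout gels (log2 2.24, adjusted p = 0.000422).

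The promoters of leading genes show which of them carry the letters that PEA3 factors are known to bind. Of the 30 leading genes, 20 had an entry in the RefSeq promoter table (GRCh38.p14), which holds 250 bases before and 50 after each start. The sequences searched, on both strands, were AGGAAG, the site after which PEA3 was named, CCGGAAG, a common ETS site, and TGANTCA, the AP-1 site that often lies beside an ETS site. The first 2 share GGAAG with a different letter before it, so no core was counted for both. Printed are the largest falls and the largest rises with an entry, with capitals marking AGGAAG or its complement.
INHBB, chr2:120345886-120346185 (plus strand): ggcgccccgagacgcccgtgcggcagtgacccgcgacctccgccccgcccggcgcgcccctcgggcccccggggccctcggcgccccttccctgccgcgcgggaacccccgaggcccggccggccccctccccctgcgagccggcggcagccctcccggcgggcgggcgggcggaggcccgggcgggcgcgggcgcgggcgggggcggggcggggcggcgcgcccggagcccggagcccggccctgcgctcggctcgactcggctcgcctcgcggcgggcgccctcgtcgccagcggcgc
CD22, chr19:35328937-35329236 (plus strand): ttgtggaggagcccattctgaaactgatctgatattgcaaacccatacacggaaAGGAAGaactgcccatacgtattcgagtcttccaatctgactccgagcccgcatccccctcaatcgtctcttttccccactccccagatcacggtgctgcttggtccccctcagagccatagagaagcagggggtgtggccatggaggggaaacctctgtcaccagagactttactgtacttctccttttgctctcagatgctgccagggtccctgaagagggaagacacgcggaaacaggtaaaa
IL1B, chr2:112836730-112837029 (minus strand): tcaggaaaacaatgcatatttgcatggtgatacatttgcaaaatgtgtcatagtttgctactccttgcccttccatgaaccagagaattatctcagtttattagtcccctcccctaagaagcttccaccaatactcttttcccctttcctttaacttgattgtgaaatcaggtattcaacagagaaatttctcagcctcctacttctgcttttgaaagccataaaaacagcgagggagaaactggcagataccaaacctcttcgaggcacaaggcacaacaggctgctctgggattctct
AKR1C1, chr10:4963165-4963464 (plus strand): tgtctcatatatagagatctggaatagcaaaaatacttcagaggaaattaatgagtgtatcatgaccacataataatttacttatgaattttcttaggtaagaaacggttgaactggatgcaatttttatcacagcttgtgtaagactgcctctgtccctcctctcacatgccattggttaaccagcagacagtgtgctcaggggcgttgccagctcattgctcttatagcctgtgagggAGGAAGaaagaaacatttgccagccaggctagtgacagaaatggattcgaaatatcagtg
CD22 and AKR1C1 hold AGGAAG once each, and INHBB and IL1B hold none of the 3 sequences in this window. Of the next promoters in size, SLCO4C1 and SEMA3E hold AGGAAG once and RGCC and CEMIP hold none of the 3. AGGAAG was common: it stood in 33.6% of all 35116 promoters, in 32.5% of those of tested genes, in 32.5% of those of genes that rose and in 34.4% of those of genes that fell. CCGGAAG stood in 19.1% of the promoters of tested genes, in 18.5% (219 of 1185) for genes that rose and in 11.7% (137 of 1167) for genes that fell. Among genes changed by more than 1.5-fold it stood in 1 of 46 promoters of those that rose and in 2 of 38 of those that fell, and AGGAAG in 20 of 46 and 20 of 38. TGANTCA stood in 4.75% of the promoters of tested genes, 5.57% for genes that rose and 5.83% for genes that fell. These shares are descriptions, not tested, and a match is not a bound site.

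More cytokine genes rose than fell in the knockout monolayers. Of 40 genes of interleukin-1, cytokines, chemokines and NF-kB regulation, 29 were tested, 15 rose and 1 fell, with a median log2 change of 0.35 against 0.01 over all genes tested. CXCL8, a chemokine for neutrophils, went from 9.02 and 7.69 CPM to 25.3 and 29.3 CPM (log2 1.69 ± 0.11 SE, adjusted p = 3.67e-14). CXCL1, a chemokine of the same family, went from 1.49 and 1.06 CPM to 4.41 and 5.67 CPM (log2 1.94 ± 0.25). PTGS2, the inducible prostaglandin synthase, went from 9.22 and 9.56 CPM to 24.8 and 30.9 CPM (log2 1.57 ± 0.11). These genes were chosen from those called, so the separation of the groups in them is set by the choice. RELB, a subunit of NF-kB, rose from 9.94 and 8.94 CPM to 16.8 and 18.1 CPM (log2 0.88 ± 0.11). IL1A, IL1R1, IL6, IL11, CSF2, CSF3, TNFAIP2, NFKB2, NFKBIA and SOD2 also rose, and IL1RAP, the accessory chain of the interleukin-1 receptor, was the gene that fell. Of these rises, IL1A, CSF2, IL1R1, IL6 and CSF3 were low, at no more than 31, 52, 64, 73 and 99 counts in any monolayer library. The other 13 tested genes did not pass, among them LIF, CSF1, CXCL2, CXCL3, IL24, NFKB1, TNFAIP3, BIRC3, TRAF1 and ICAM1. In gels 5 of these 29 genes were called higher and 7 lower, with a median of -0.04, where 23.9% of all genes tested were called in either direction. The difference between cultures was called for 12 of them, against 6.6% of all genes tested. The monolayer median was 0.18 with a stricter filter on low counts and 0.68 with none.

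Most genes of antigen presentation rose. Of 23 genes of HLA class I and antigen processing, all tested, 17 rose and 2 fell, with a median log2 change of 0.27. HLA-B went from 154 and 164 CPM to 279 and 287 CPM (log2 0.84 ± 0.05 SE, adjusted p = 5.04e-15), and HLA-C from 170.2 and 179 CPM to 255 and 252 CPM (log2 0.54). B2M, the light chain they share, went from 350 and 365 CPM to 447 and 482 CPM (log2 0.38). HLA-F, at a low level, went from 0.926 and 0.869 CPM to 3.99 and 3.98 CPM (log2 2.13). HLA genes resemble each other, so the division of reads among them is uncertain. The transporter genes TAP1 and TAP2 and the immunoproteasome genes PSMB8, PSMB9 and PSMB10 rose too, and the 2 that fell, CD274 (PD-L1) and CD47, encode surface ligands that restrain immune cells. Without control library 1 the count of rises was 10, and without any single monolayer library the count of falls was 1. In gels 12 of the 23 were higher and 2 lower, where 23.9% of all genes tested were called in either direction.

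Of 44 interferon-stimulated genes 40 were tested, 16 rose and none fell, with a median of 0.22 (0.139 without knockout library 2). After OASL the smallest adjusted p values belonged to IRF1, a transcription factor of the interferon response, IFIT2, IFIT1 and IFI44. IRF1 went from 24.3 and 23.3 CPM to 46.6 and 43.9 CPM (log2 0.92 ± 0.08 SE). IFIT1 and IFIT2, sensors of foreign RNA, rose by 1.00 and 0.88 on the log2 scale, and IFI44 by 0.78. ISG15 and IFIT3 were also among the 16, while STAT2, IRF7, IRF9, MX1 and BST2 were among the 24 that did not pass. With offsets for transcript length and GC content, 1 gene of the list was called lower.

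In the TGF-beta and activin list, all 38 genes were tested, 15 rose and 5 fell, with a median log2 change of 0.13. PMEPA1, a feedback inhibitor of TGF-beta signals, went from 39.7 and 35.7 CPM to 106 and 110.3 CPM (log2 1.52 ± 0.07 SE, adjusted p = 1.08e-18). TGFBI, an extracellular protein named for its induction by TGF-beta, went from 17.2 and 19.9 CPM to 55.3 and 52.7 CPM (log2 1.56 ± 0.09). BMP4, a ligand, rose from 128 and 119.7 CPM to 184 and 188 CPM, and TGFBR1, the type I receptor, from 79.7 and 82.1 CPM to 114 and 120 CPM. The activin subunits moved in opposite directions: INHBB fell as above, and INHBA rose from 1.81 and 1.49 CPM to 2.48 and 3.93 CPM (log2 0.94 ± 0.27, adjusted p = 0.0125). Among the other genes that fell were ACVR2B, FSTL1 and FST, of which FST encodes follistatin, which binds activin (118 and 116 CPM to 95.4 and 91.4 CPM). Without control library 2 the count of falls was 3.

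Aldo-keto reductases and targets of the oxidative stress factor NRF2 rose in the main. Of 31 genes 26 were tested, 14 rose and 2 fell, with a median of 0.18. The list also holds NFE2L2, the gene of NRF2 itself, and KEAP1, both among the rises. AKR1B1, aldose reductase, went from 196 and 175 CPM to 333 and 351 CPM (log2 0.88 ± 0.05 SE, adjusted p = 2.43e-15). AKR1C3 went from 33.0 and 36.5 CPM to 54.7 and 64.3 CPM (log2 0.79), and AKR1C2 from 2.7 and 2.67 CPM to 6.46 and 8.67 CPM (log2 1.5). FTH1, the ferritin heavy chain, rose by 0.37, and NQO1, GCLM, GCLC and HMOX1, known NRF2 targets, rose as well. The genes that fell were SLC7A11, the cystine transporter, and ME1. TXNRD1 and SRXN1, also NRF2 targets, did not pass. Without control library 2 or knockout library 1, 1 gene of the list fell. In the list of aryl hydrocarbon receptor targets, 9 of 11 genes were tested, 5 rose and 1 fell: besides CYP1B1 and NQO1, AHR itself, TIPARP (log2 0.44) and KYNU (log2 0.83) rose, ALDH3A1 fell by 0.60, and CYP1A1 did not pass.

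Among protease inhibitors of the cystatin family, 5 of 11 genes were tested, 4 fell and none rose, with a median of -1.54. CST3, cystatin C, fell from 360.3 and 359 CPM to 307 and 301 CPM (log2 -0.24 ± 0.05 SE). CST2 fell from 2.62 and 2.98 CPM to 1.03 and 0.873 CPM (log2 -1.54 ± 0.30), and CSTB did not pass. CST1, CST2 and CST4 are near-identical neighbours on chromosome 20, so they are not independent counts. With the stricter filter on low counts the median of this list was -0.996. Of the cathepsins and other lysosomal genes, 29 of 30 listed symbols were tested, 12 rose and 2 fell, with a median of 0.17 (0.113 without control library 1). CTSD, the aspartic protease cathepsin D, rose from 323 and 333 CPM to 510.4 and 512 CPM (log2 0.64 ± 0.05 SE, adjusted p = 3.15e-13), and CTSA and CTSZ by 0.38 and 0.28. NPC1, which exports cholesterol from the lysosome, fell from 147 and 152 CPM to 110 and 107 CPM. The count of rises was 6 without control library 1 and 7 without knockout library 1, and the count of falls was 1 without control library 2 or either knockout library.

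Cholesterol synthesis was the list with the largest share of falls among lists with at least 10 tested genes. All 28 genes were tested, 19 fell and 1, SCAP, rose, with a median log2 change of -0.33. SQLE, squalene epoxidase, went from 56.9 and 60.6 CPM to 35.5 and 36.7 CPM (log2 -0.70), and MSMO1 from 108 and 117 CPM to 70.2 and 72.0 CPM (log2 -0.65). SREBF2, the transcription factor that drives the pathway, fell from 222 and 245 CPM to 180 and 172 CPM (log2 -0.40 ± 0.05). The knockout libraries lay below both controls for each of these genes, as the groups separated in all but 2 of the genes called. Of all genes lower in monolayers, 50.8% were also called lower in gels. All 19 genes that fell were also called lower in gels, and SCAP did not pass in leave-one-out fits without control library 1, knockout library 1 or knockout library 2, which called none higher.

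In fatty acid synthesis, 10 of 26 tested genes fell and 3 rose, with a median of -0.07. The median was 0.003 without knockout library 1, -0.143 without control library 1 and -0.137 without knockout library 2. LPIN2, a phosphatidate phosphatase, had the largest fall of those named, from 193 and 206 CPM to 116 and 115 CPM (log2 -0.79 ± 0.05 SE). SCD, the stearoyl-CoA desaturase, went from 1427 and 1616 CPM to 1218 and 1184 CPM (log2 -0.34), ACACA, acetyl-CoA carboxylase, from 100.2 and 95.6 CPM to 77.1 and 72.7 CPM (log2 -0.39), and ACSS2 fell by 0.44. The genes that rose, DGAT2, PLIN2 and PLIN3, act in the making and coating of lipid droplets. Without control library 2, 6 genes fell, and without control library 1 or without knockout library 1, none rose.

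**Figure D3:**
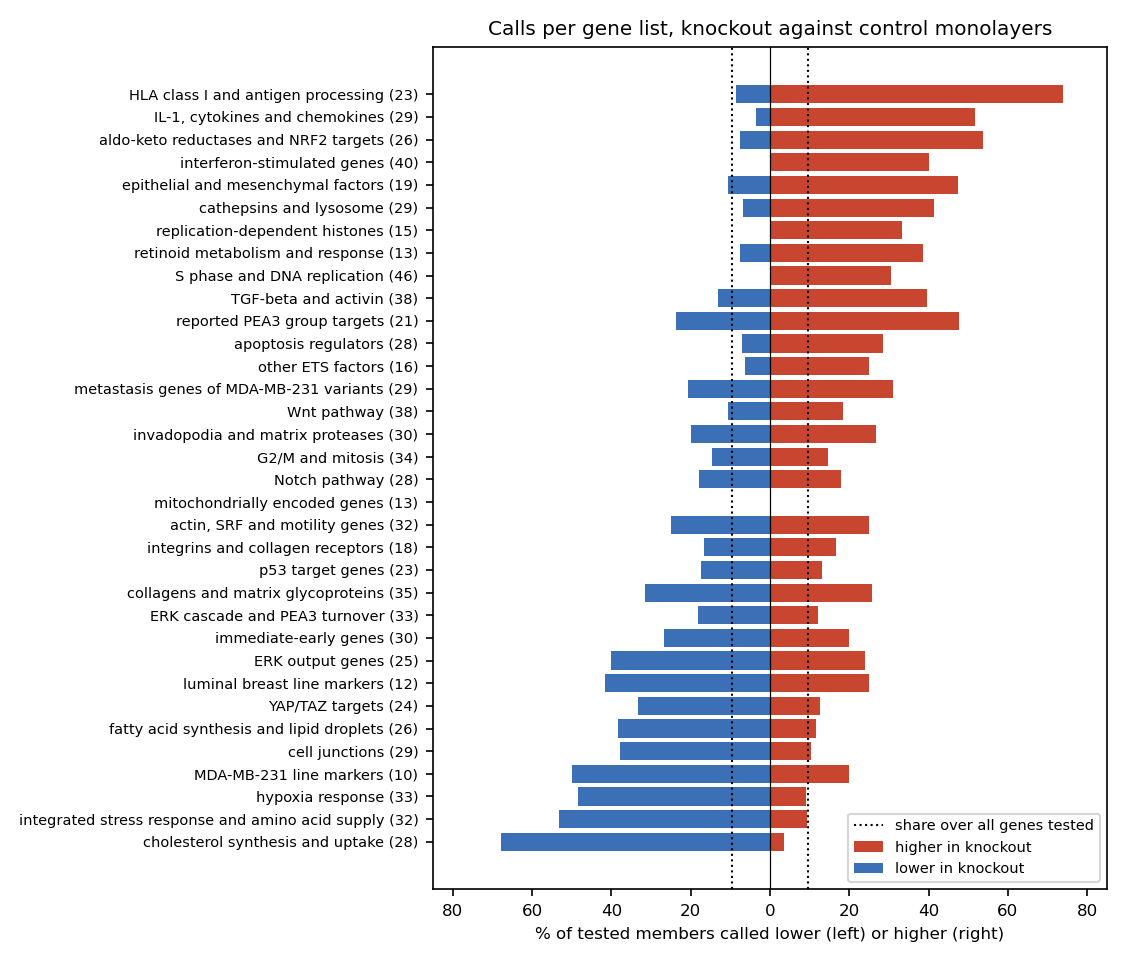
Bars give the percentage of each list's tested members (number in brackets) called higher (red, right) or lower (blue, left) in the knockout monolayers, for lists with at least 10 tested members, and the dotted lines mark 9.6%, the share in each direction over all genes tested. Antigen processing (17 of 23 higher) is at the top and cholesterol synthesis (19 of 28 lower) at the bottom. The share called rose with expression level, and the lists were not matched for level.

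Genes of amino acid supply and the integrated stress response fell more often than they rose, 17 against 3 of 32 tested, with a median of -0.23. PSAT1, of serine synthesis, went from 199.9 and 212 CPM to 149 and 154 CPM (log2 -0.44 ± 0.05 SE, adjusted p = 1.34e-08). PHGDH, the first enzyme of that pathway, went from 61.1 and 74.4 CPM to 52.1 and 50.6 CPM (log2 -0.39, and -0.25 without control library 2), CTH, of cysteine synthesis, fell by 0.65 and CHAC1, which degrades glutathione, by 0.81. ATF5 rose (log2 0.50), and ATF4, the factor that drives the response, did not pass (log2 -0.10, adjusted p = 0.131). The count of falls was 9 without control library 2 and 10 without knockout library 2, and 1 gene rose without control library 1.

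Of 33 hypoxia-response genes, all tested, 16 fell and 3 rose, with a median of -0.19 (-0.105 without control library 2). CA9, a carbonic anhydrase of the cell surface, went from 31.2 and 40.0 CPM to 18.9 and 20.2 CPM (log2 -0.85 ± 0.10 SE, adjusted p = 5.69e-07). CA12, of the same family, went from 48.6 and 53.3 CPM to 31.4 and 37.6 CPM (log2 -0.55), HK2, a hexokinase, from 237 and 251 CPM to 175 and 172 CPM (log2 -0.49), and BNIP3, of mitophagy, from 309 and 341 CPM to 242 and 258 CPM (log2 -0.38). The groups did not overlap for these genes, as for all but 2 of the genes called. VEGFA, the angiogenic growth factor, was among the 3 that rose, from 225 and 221 CPM to 329 and 331 CPM (log2 0.56 ± 0.05), with EPAS1 and SLC2A1. All 16 genes that fell were also called lower in gels, against 50.8% of all genes lower in monolayers. Of the 33 genes, 26 had a called difference between cultures, against 6.6% of all genes tested. CA9 and BNIP3 changed by -3.58 and -1.47 on the log2 scale in gels.

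The list for the mechanosensitive factors YAP and TAZ split, with 8 of 24 genes lower and 3 higher (median -0.08). Besides targets it holds the factor genes YAP1, WWTR1 (TAZ), TEAD1 and TEAD4. WWTR1 was among the 3 that rose and TEAD1 among the 8 that fell, while YAP1 and TEAD4 did not pass. CCN2, a matricellular protein, went from 552 and 563 CPM to 324 and 315 CPM (log2 -0.80 ± 0.04 SE, adjusted p = 1.39e-15), ANKRD1 from 352 and 342 CPM to 234 and 232 CPM (log2 -0.57), and CRIM1 fell by 0.42. F3, tissue factor, rose from 201 and 179 CPM to 293 and 280.4 CPM (log2 0.59).

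Genes that report ERK activity also moved both ways. All 25 were tested, 10 fell and 6 rose, with a median of 0.06 (0.001 without control library 1). The feedback phosphatases DUSP5 (149 and 160.3 CPM to 92.4 and 89.7 CPM, log2 -0.76 ± 0.05 SE) and DUSP6 (349.6 and 383 CPM to 240.2 and 250.4 CPM, log2 -0.58 ± 0.05) fell, as did the Sprouty inhibitors SPRY1 (log2 -0.70) and SPRY4 (log2 -0.36). EGR1, an immediate-early factor, rose from 69.8 and 73.7 CPM to 106 and 94.2 CPM (log2 0.48). The count of falls was 6 without control library 2, and the count of rises was 2 without control library 1 and 3 in a fit to the 4 monolayer libraries alone. In the immediate-early list, 6 of 30 tested genes rose, JUNB among them (log2 0.45), and 8 fell, among them JUN (213 and 214 CPM to 169 and 159 CPM, log2 -0.38) and MYC (log2 -0.31). Without control library 2, 5 of them fell.

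Genes reported elsewhere as PEA3 targets were called higher more often than lower. Of 30 such genes 21 were tested, 10 rose and 5 fell, with a median of 0.15 (0.097 without knockout library 1 and 0.085 with length and GC offsets). MMP14, a membrane-bound collagenase, went from 801 and 861 CPM to 1074 and 1044 CPM (log2 0.35 ± 0.05 SE, adjusted p = 3.9e-07). RUNX2, an osteoblast transcription factor, rose from 38.9 and 38.0 CPM to 53.6 and 51.8 CPM (log2 0.45), and PTGS2 and VEGFA rose as above. The 5 that fell were VIM, CXCR4, MYC, MET and TERT, of which 3 passed without knockout library 2. The metalloproteinase genes MMP2 and MMP9, at no more than 2 counts in any monolayer library, could not be tested. Of 32 genes of metastasis from studies of this line, 29 were tested, 9 rose and 6 fell (median 0.07): FGF5, a growth factor, fell from 51.2 and 50.9 CPM to 33.2 and 34.7 CPM (log2 -0.59), and KYNU and PLAAT4 (log2 1.15) rose. With the stricter filter on low counts, 5 of these genes rose.

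Proteases, matrix and adhesion genes moved both ways. Of 30 tested genes of invadopodia and matrix proteolysis, 8 rose and 6 fell (median 0.07). TIMP1, which inhibits metalloproteinases, went from 174 and 170.3 CPM to 277 and 289 CPM (log2 0.72 ± 0.05 SE), ADAM19 from 109 and 111 CPM to 158 and 159 CPM (log2 0.53), and PLAT, tissue plasminogen activator, from 356 and 392 CPM to 249.6 and 275 CPM (log2 -0.51). Among collagens and matrix glycoproteins, 9 of 35 tested genes rose and 11 fell (median -0.01). COL13A1, a transmembrane collagen, fell from 471 and 511 CPM to 245 and 242 CPM (log2 -1.01 ± 0.05), and HSPG2 (perlecan) and LAMA3, a laminin chain, fell by 0.73 and 0.70. THBS1, thrombospondin 1, rose from 426 and 394 CPM to 675 and 683 CPM (log2 0.73 ± 0.05), and COL6A3 by 0.86. Of 18 tested integrins and collagen receptors, 3 fell (ITGB4, ITGB3 and ITGA6) and 3 rose (ITGB8, CD44 and ITGA11). ITGA6, the partner of ITGB4, fell by 0.13 on the log2 scale (adjusted p = 0.047). CD44 did not pass without control library 1 or knockout library 2 (adjusted p = 0.0557 and 0.0592), and ITGA11, at most 1.75 CPM in any monolayer library, did not pass without knockout library 2 (adjusted p = 0.281), which left ITGB8 as the rise.

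Cell junction genes fell in 11 of 29 tested cases and rose in 3, with a median of -0.15. CDH4, R-cadherin, went from 94.2 and 98.3 CPM to 66.6 and 61.4 CPM (log2 -0.59 ± 0.06 SE), CLDN4, of tight junctions, from 58.0 and 62.9 CPM to 47.2 and 44.8 CPM (log2 -0.39), and DSC2, of desmosomes, fell by 0.48. GJB2, a gap junction channel, and JUP, plakoglobin, rose by 0.60 and 0.35, but JUP did not pass without control library 1 (adjusted p = 0.0502). The transcripts of this list were long, with a median of 4929 bases against 3324 over all genes tested. With length and GC offsets 10 of them fell, 3 rose and the median was -0.165.

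In the list of epithelial and mesenchymal factors, 19 of 28 genes were tested, 9 rose and 2 fell, with a median of 0.32. Keratins made up most of the rises: KRT7 went from 172 and 159 CPM to 254 and 239 CPM (log2 0.57 ± 0.05 SE), KRT8 from 387 and 427 CPM to 521 and 493 CPM (log2 0.32), KRT18 rose by 0.31, and KRT80 rose too. KRT14, KRT17 and KRT81 were also called higher, but reached no more than 13, 12 and 22 counts in any library, near the filter. The mesenchymal transcription factor gene SNAI2 also rose, from 15 and 15.1 CPM to 25.1 and 28.4 CPM (log2 0.83), as did SNAI1, at no more than 44 counts in any library. ZEB1, another such factor, fell from 140.3 and 147 CPM to 104 and 119 CPM (log2 -0.36), with VIM. With the stricter filter on low counts 5 genes rose and the median was -0.03. Keratins 8 and 18 are also luminal markers. In the luminal list of 12 tested genes they rose with GATA3, while TFF3 (log2 -1.34), AGR2, ERBB3 and TFF1 were among the 5 that fell. GATA3 did not pass without knockout library 1 (adjusted p = 0.0675), and 3 luminal genes fell there.

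Cytoskeletal genes were balanced, 8 higher and 8 lower of 32 tested (median 0.04). FHL1, a LIM-domain protein of muscle and motile cells, went from 33.5 and 37.0 CPM to 18.1 and 16.8 CPM (log2 -1.01 ± 0.09 SE), and VCL, vinculin, fell by 0.28, or by 0.19 with length and GC offsets. RHOB, a small GTPase, and TAGLN2 rose by 0.58 and 0.34. The count of rises was 2 without control library 1, 3 without knockout library 1 and 5 with length and GC offsets.

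Of the DNA replication genes, all 46 were tested, 14 rose and none fell, with a median of 0.09, although 1 or 2 were called lower in some fits with other scalings, filters or fewer libraries. RRM2, a subunit of ribonucleotide reductase, went from 180 and 182 CPM to 238 and 254 CPM (log2 0.44 ± 0.05 SE, adjusted p = 9.06e-09), GINS4, of the replicative helicase, from 63.8 and 61.1 CPM to 92.7 and 87.5 CPM (log2 0.53), and CCNE2, cyclin E2, by 0.53. Without knockout library 1, 7 rose, and without control library 2, 8. The MCM genes MCM2 to MCM7 did not pass. Mitotic genes were balanced, with 5 of 34 tested genes higher and 5 lower (median 0.00), 29.4% called against 19.2% over all genes tested. CENPF, a kinetochore protein, fell from 353 and 320.4 CPM to 269.7 and 267 CPM (log2 -0.33), ANLN by 0.28 and MKI67 by 0.27, with log2 changes of -0.20 for CENPF and -0.12 for MKI67 under length and GC offsets, while UBE2S and CDC25B rose by 0.21 and 0.23. The rises numbered 2 without control library 1 or knockout library 1 and the falls 3 without knockout library 1. Of 28 replication-dependent histone genes 15 were tested and 5 rose, with a median of 0.69: H1-2 went from 23.1 and 21.8 CPM to 44.4 and 44.6 CPM (log2 0.98 ± 0.08) and H2BC12 from 22.1 and 21.2 CPM to 36.1 and 37.9 CPM (log2 0.77). These transcripts mostly lack a poly(A) tail, so their level in poly(A)-selected libraries also depends on the selection, and H2BC21 was at the threshold (adjusted p = 0.0499).

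Of 28 tested apoptosis regulators 8 rose and 2 fell (median 0.13). BMF, which promotes death, went from 2.86 and 2.23 CPM to 6.95 and 5.62 CPM (log2 1.27 ± 0.23 SE), BAK1 and PMAIP1 rose by 0.32 and 0.29, and BCL2L1, which protects from death, fell from 597 and 625 CPM to 523 and 517 CPM (log2 -0.23). The rises numbered 4 without control library 1 or knockout library 1, 5 without knockout library 2 and 3 with the DESeq2 Wald test. Of 23 tested p53 targets 3 rose and 4 fell, 30.4% called against 19.2% over all genes tested. CDKN1A, the cell cycle inhibitor p21, went from 51.3 and 52.1 CPM to 81.4 and 78.9 CPM (log2 0.63 ± 0.06), and GADD45A fell by 0.28. Without control library 2, 2 p53 targets fell.

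Wnt genes rose in 7 of 38 tested cases and fell in 4 (median 0.04), 28.9% called against 19.2% over all genes tested. WNT7B, a ligand, went from 15.6 and 16.4 CPM to 31.2 and 27.9 CPM (log2 0.89 ± 0.09 SE), PORCN, which acylates Wnt ligands, from 14.1 and 12.4 CPM to 22.9 and 23.5 CPM (log2 0.79), and DKK1, a secreted inhibitor, from 456 and 469.7 CPM to 574 and 566 CPM (log2 0.30). The falls numbered 1 without control library 2, knockout library 1 or knockout library 2. In the Notch list, 5 of 28 tested genes rose and 5 fell (median 0.07). The target gene HES1 went from 13.0 and 13.5 CPM to 23.6 and 25.3 CPM (log2 0.89 ± 0.10), LFNG, which modifies the receptor, rose by 0.59, and RBPJ, the DNA-binding effector, fell by 0.22. The rises numbered 2 and the falls 1 without knockout library 1, and the falls 2 without control library 2 or knockout library 2. Of 13 tested retinoid genes 5 rose, such as TGM2, a transglutaminase (289 and 298 CPM to 384 and 374 CPM, log2 0.37), and 1, RDH11, fell. Without knockout library 1, 3 rose, and RDH11 did not pass without control library 2 or knockout library 2. Of 8 tested genes of metallothioneins and zinc, the zinc exporter gene SLC30A1 rose (20 and 20.8 CPM to 28.9 and 35.2 CPM, log2 0.66), SLC39A10 fell except in fits without control library 2 or knockout library 1, and the metallothionein genes MT1E, MT1X and MT2A did not pass.

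Of the 16 other ETS factors tested, EHF (log2 0.31), ELK1 (log2 0.25), ETV6 (log2 0.30) and ERF (log2 0.23) rose and ELF4 fell by 0.22, with a median of 0.12 (0.184 without knockout library 2). EHF, an epithelial ETS factor, went from 64.0 and 68.2 CPM to 77.4 and 86.3 CPM. It was the rise left in fits without control library 1 and without knockout library 1, and ELF4 did not pass without control library 2 or either knockout library. None of the 13 mitochondrially encoded genes passed in the model of all libraries, although 7 did in a fit to the 4 monolayer libraries alone. MT-CO1 stood at 7157 and 7827 CPM in controls and 9277 and 9287 CPM in knockouts (log2 0.31, adjusted p = 0.494).

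In absolute terms, the genes that gained most CPM among those called included PKM, the glycolytic pyruvate kinase, with 591 CPM, the actin genes ACTB (477 CPM) and ACTG1 (367 CPM), HSPA8, a chaperone (358 CPM), and PTMA (271 CPM). PKM went from 2568 and 2736 CPM to 3239 and 3247 CPM (log2 0.29 ± 0.05 SE), and HSPA8 from 1324 and 1350 CPM to 1667 and 1723 CPM. Of these, the gene ACTB (adjusted p = 0.0108) and the gene ACTG1 (adjusted p = 0.00747) did not pass in fits without control library 1 (0.179 and 0.125), without knockout library 1 (0.181 and 0.147) or without knockout library 2 (0.0731 and 0.0578). The largest losses were in VIM, the intermediate filament vimentin (5697 and 6308 CPM to 5351 and 5284 CPM), HMGA1, a chromatin protein (3215 and 3599 CPM to 2907 and 2867 CPM, log2 -0.24, and -0.15 without control library 2), PLEC, plectin, which ties filaments to integrin beta 4 (1710 and 1837 CPM to 1464 and 1258 CPM), CCN1, SCD and S100A6. VIM fell by 0.17 on the log2 scale, and did not pass without control library 2 or knockout library 2 (adjusted p = 0.132 and 0.116).

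The gel libraries gave a separate measure of the same knockout. There 3721 of 15568 genes (23.9%) were called, and 1418 genes passed in both cultures in the same direction, which is 47.4% of the monolayer calls and 38.1% of the gel calls. Another 74 (2.48% of the monolayer calls) passed in opposite directions and 1497 (50.1%) did not pass in gels. Of the 126 genes changed by more than 1.5-fold in monolayers, 105 (83.3%) were also called in gels in the same direction. The difference between cultures was itself called for 1028 genes (6.6% of those tested), and for 552 (18.5%) of the monolayer calls. Among the 30 leading genes it was called for 15. IL1B, CXCL8 and TGFBI, which rose in monolayers, had log2 changes of -0.07, 0.02 and -0.04 in gels, and PMEPA1 rose there by 0.30. CST1 and CST4 fell further in gels, by 3.61 and 3.20 on the log2 scale. ITGB4 fell by 1.68 there. OASL, CEMIP, CYP1B1, AQP3, INHBB, TFF2, CD22 and RGCC were called in the same direction in both cultures, with no called difference. Of the genes named, MMP14 (0.35 and -0.35), ADAM19 (0.53 and -0.28), CCN1 (-0.54 and 0.18) and MKI67 (-0.27 and 0.35) were called in opposite directions in monolayers and gels, chosen for mention after their values were seen. The control gels were labelled with Cas9 and the control monolayers were not, so culture and Cas9 in the controls cannot be told apart in these differences.

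**Figure D4:**
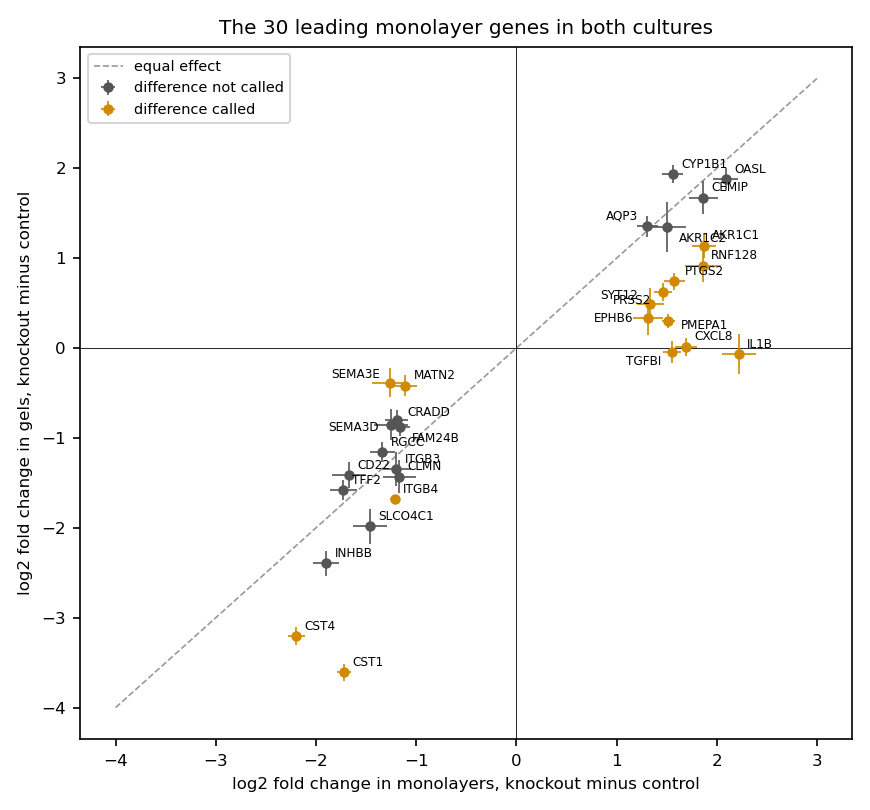
The 30 leading monolayer genes are placed by their log2 fold change in monolayers (x axis) and in gels (y axis), knockout minus control, with SE bars, the dashed line marking equal effects and orange points a called difference between cultures. IL1B, CXCL8 and TGFBI lie near 0 on the gel axis (-0.07, 0.02 and -0.04), and CST1 and CST4 lie below the line.

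The direction of the monolayer calls varied with transcript length. Transcript length and GC content could be assigned from GENCODE v29 to 15174 of the tested genes (97.5%). Split by the length of their longest transcript into 4 classes of nearly equal size, the shortest class had 358 genes higher and 153 lower in the knockout monolayers, and a median log2 change of 0.05. The longest class had 273 higher and 772 lower, with a median of -0.06. Of 4 such classes by GC content, the lowest had 219 genes higher and 437 lower, and the highest 574 and 259. In gels the longest length class had 439 genes higher and 617 lower. A fit with length and GC offsets for each library called 3052 genes, of which 2478 were among the 2989. None of the shared calls changed direction. The longest class then had 527 higher and 534 lower, but the offsets remove a trend with length by design, so this balance is set by the fit. Named genes that did not pass with these offsets included ACTB (adjusted p = 0.147), ACTG1 (0.154) and ERF (0.0506). By class, 1432 of 12567 protein-coding genes rose and 1367 fell, against 41 and 101 of 1841 long noncoding genes. Calls were fewer at low expression levels, as given above, and these classes were not matched for level. Whether length and GC content follow the state of the RNA, the library or the cells was not tested.

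**Figure D5:**
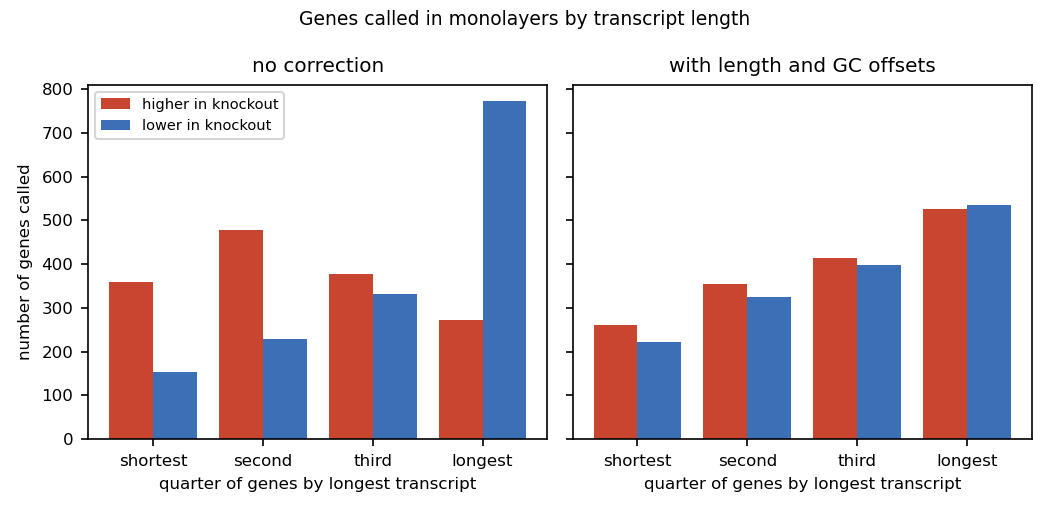
Bars count the genes called higher (red) and lower (blue) in the knockout monolayers in 4 classes of genes by the length of their longest transcript, without correction (left) and with length and GC offsets (right). Without correction the longest class has 273 higher and 772 lower genes, and with the offsets 527 and 534. The offsets remove a trend with length by design, so the balance on the right is set by the fit.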

How the data were processed

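The authors deposited unnormalized gene counts. The tools named, per the submitters' processing notes, are FastQC 0.11.9, STAR 2.7.9a, featureCounts and R 4.1.1, and the build is hg38. No source used here gives the annotation or strand setting, so overlapping genes on opposite strands are uncertain. Per the labels, libraries came from a stranded poly(A) mRNA kit.

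Of 61228 genes in the table, 15568 passed filterByExpr at a minimum count of 10; these genes hold 99.89% of all counts. After TMM scaling they were fitted with edgeR 4.0.16 (R 4.3.3) as 4 group means over all 8 libraries, with 4 residual degrees of freedom and a common dispersion of 0.00163 (biological coefficient of variation 4.03%). The quasi-likelihood F-test was robust and two-sided, with Benjamini-Hochberg adjustment over all tested genes and a threshold of 0.05. Tests against 1.5-fold used glmTreat. Totals of 15824504 to 23896899 counts make genes of a few CPM the least precise. Alternatives used DESeq2 1.42.0, limma 3.58.1, other scalings and filters, and fits without each library.

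Named were ETV1, ETV4 and ETV5, the 15 largest rises and 15 largest falls with a mean of at least 5 CPM whose groups did not overlap (no clone, LOC, LINC or antisense identifier), from each of 41 lists the called members lowest in adjusted p (5 at most), or the 2 most abundant where fewer than 2 passed, and the 6 largest CPM changes of each sign. Other members are named by their call. The genes and lists were chosen with earlier results of these data known. Replicate differences of control and knockout monolayers had a correlation of 0.0465 across genes (-0.0629 to 0.0817 over all group pairs). Replicates varied beyond counting error, with chi-squared per degree of freedom 3.16 in control and 2.47 in knockout monolayers. It was 4.04 in control and 5.94 in knockout gels, which share the estimate of spread. No pairing was used. Some genes that the rule names are not reported here.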

Additional observations from a re-analysis of the deposited data

Results flagged for a closer look

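For 15 of the 30 leading genes the knockout effect differed between the cultures by the test of the difference itself (edgeR, adjusted over all genes tested). As log2 changes in gels minus those in monolayers, the differences among the genes that rose in monolayers were -2.29 for IL1B, -1.68 for CXCL8, -1.60 for TGFBI, -1.21 for PMEPA1, -0.98 for EPHB6, -0.94 for RNF128, -0.84 for SYT12, -0.83 for PTGS2, -0.83 for PRSS2 and -0.73 for AKR1C1. Among the genes that fell in monolayers, the differences were -1.89 for CST1, -1.01 for CST4 and -0.47 for ITGB4, whose fall was larger in gels, and 0.88 for SEMA3E and 0.69 for MATN2, whose fall was smaller. Culture and the Cas9 label of the controls cannot be told apart in these values.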

How the results depend on the processing

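The 14 alternatives were all run, except that the fit to the 4 monolayer libraries has no count shared with gels. Counts of genes changed, higher, lower, over 1.5-fold and shared with gels were 2989, 1494, 1495, 126 and 1418. The DESeq2 Wald test gave 1835, 852, 983, 45 and 888, and limma-voom gave 79 over 1.5-fold. Leaving out each of the 4 monolayer libraries in turn gave 1848 to 2267 changed, 767 to 1135 higher, 1028 to 1132 lower, 63 to 98 over 1.5-fold and 970 to 1099 shared with gels; the remaining library of that group is then assumed to vary like the other groups. With the replicate block the counts were 3187, 1603, 1584, 134 and 1514. The labels do not say that a number pairs libraries and there are only 2 numbers, so whether numbers pair libraries cannot be told; the block moved each count by less than 1.5 times and, of the named calls, ended that of H2BC21 (adjusted p = 0.0526). Scaling by library size alone gave 1313 higher and 1576 lower. No call shared with the 2989 changed direction in any alternative. Of 195 named genes 190 were called, 167 kept the call in all alternatives, 23 lost it in at least 1, and MT-CO1 gained it in the fit to the 4 monolayer libraries (adjusted p = 0.000159). Of 15 list counts of 10 or more, 6 moved by over 1.5 times in some alternative, each given beside its list. Depth limits genes near the filter, and the cause of the other shifts was not tested.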

Other observations

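The guides were aimed at genes on chromosomes 7, 17 and 3, and calls among the tested genes on either side of each target are given beside 9.6% of all tested genes in each direction. Above ETV4 on chromosome 17, 18 of 427 genes were higher and 65 lower in the knockout monolayers, with a median log2 change of -0.05 (-0.10 in gels), and below it 29 of 478 were higher and 44 lower, with a median of 0.01. Above ETV5 on chromosome 3, towards the end of the long arm, 2 of 69 genes were higher and 15 lower, with a median of -0.11 (-0.10 in gels), and below it 57 of 788 were higher and 98 lower. Below ETV1 on chromosome 7, 15 of 78 genes were higher and 4 lower, with a median of 0.05 (-0.03 in gels), and above it 54 of 642 were higher and 71 lower. Chromosomes without a target were also unequal, with 20 genes higher and 47 lower of 281 on chromosome 13 (median -0.07), 32 and 74 of 476 on chromosome 15, 145 and 45 of 1083 on chromosome 19 and 43 and 14 of 337 on chromosome 22. These are descriptions of neighbouring genes, which are not independent; no difference was tested.

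In the semaphorin region of chromosome 7 the neighbours SEMA3E, SEMA3A, SEMA3D, ELAPOR2 and DMTF1 were all called lower in the knockout monolayers, with log2 changes of -1.26, -0.19, -1.25, -0.32 and -0.25. In gels SEMA3D was called lower (-0.85), and SEMA3E, SEMA3A, ELAPOR2 and DMTF1 were at -0.38, 0.03, -0.20 and -0.19. These genes were chosen after their values were seen, so their shared direction is set by the choice. Over all 642 tested genes above ETV1 on this chromosome, 71 were lower and 54 higher, with a median of -0.006.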
